A study of Mus musculus with 28 samples.

Results

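The 9 genes described here encode the core of the retinoid pathway in mouse mammary cells: *Rbp4*, *Stra6*, *Crabp1*, *Crabp2*, *Aldh1a1*, *Aldh1a2*, *Aldh1a3*, *Cyp26b1* and *Rarb*. They were chosen by symbol, with earlier results of these data known, and are 9 of the 50600 genes in the deposited counts. All 9 were found by Ensembl ID. The 28 libraries come from 7 C57BL/6 *PdgfrαCre R26mTmG* adult females, of which 4 were left untreated and 3 received estrogen plus progesterone (E+P). In these mice a constitutive Cre is driven by the *Pdgfrα* promoter, so cells that expressed Cre at any time, and their progeny, carry GFP (eGFP in the labels), and all others keep tdTomato. Each mouse gave 4 libraries, from GFP+ and tdTomato+ stromal cells (CD49f-EpCAM-) and from GFP+ and tdTomato+ luminal epithelial cells (CD49f lo EpCAM+), all depleted of blood and endothelial cells. This makes 8 groups, with n = 4 untreated and n = 3 E+P in every subset. All groups share the Cre and the reporter, and GFP marks ancestry rather than present *Pdgfra* expression.

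Retinol circulates bound to RBP4 and enters cells through the receptor STRA6. Retinol dehydrogenases turn it into retinaldehyde, and the ALDH1A enzymes oxidise retinaldehyde to retinoic acid, the active form. CRABP1 and CRABP2 carry retinoic acid inside the cell, CYP26 enzymes degrade it, and the nuclear receptors RARα, RARβ and RARγ, paired with RXR, switch genes on when it binds. In the mammary gland *Aldh1a3* is widely used as a marker of luminal progenitors, and *Rarb* is a textbook target of retinoic acid itself.

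RAR and RXR pairs recognise direct repeats of a 6-base motif, and the repeat with a 5-base spacer (DR5) upstream of *Rarb* is the classical example. This sequence is shown because it is the feature through which *Rarb* is known to respond to retinoic acid. The promoter table of RefSeq (GRCm38.p6) held windows for 7 of the 9 genes, and *Crabp2* and *Aldh1a3* were not among them. The motif AGGTCA was searched on both strands together with its variant AGTTCA and, starting with another base, with the forms GGGTCA and also GGTTCA, in direct repeats with a spacer of 1, 2 or 5 bases (DR1, DR2 and DR5). Of the 12 windows of these 7 genes, that of *Rarb* held a match, a DR5 from 53 to 37 bases before the start. The 250 bases before that start, on the minus strand at chr14:16575477-16575726 and inside the annotated span of *Rarb*, are given with both copies of the motif in capitals.
Rarb: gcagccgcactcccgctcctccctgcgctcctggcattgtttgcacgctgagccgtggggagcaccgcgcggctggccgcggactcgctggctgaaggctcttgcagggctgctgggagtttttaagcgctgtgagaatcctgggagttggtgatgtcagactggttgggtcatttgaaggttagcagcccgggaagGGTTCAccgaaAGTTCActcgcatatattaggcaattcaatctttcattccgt
Of all 32851 promoter windows of 300 bases, 32 (0.0974%) held a DR5 in this spelling, 73 (0.222%) a DR1 and 88 (0.268%) a DR2. Among 38 other genes of the pathway with a window, *Cyp26a1* held a DR5 on the opposite strand, from 32 to 16 bases before its start, and *Bco1* a DR1. The DR5 matches of both genes are set side by side with the motifs in capitals.
Rarb DR5: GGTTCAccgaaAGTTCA
Cyp26a1 DR5: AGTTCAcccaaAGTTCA
A match is a run of letters and not a measured binding site, and a window without one says only that these letters are not in it.

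Library totals ran from 8623383 to 24583803 counted reads. Levels are given as CPM, the read count relative to the library total after TMM scaling over all 28 libraries. By library total alone, before TMM scaling, 3 counts correspond to between 0.122 and 0.348 CPM, a floor that covers counting error only. After TMM scaling, 3 counts in untreated GFP+ luminal replicate 2 were 0.302 CPM, beside 0.348 before it. Fibroblast markers (*Pdgfra*, *Col1a1*, *Col3a1*, *Dcn*, *Lum*, *Pdgfrb*) summed to between 25600 and 50638.5 CPM in GFP+ stroma and luminal keratins with *Epcam* and *Cldn4* to between 3695 and 6978 CPM in luminal cells, as the labels have it. The tdTomato+ stroma was a mixture, with between 5258 and 8534 CPM of pericyte and smooth muscle markers and between 1816 and 15741 CPM of skeletal muscle markers. In these bulk samples fewer cells of a type and less RNA per cell cannot be told apart. Log2 fold changes were fitted by edgeR with standard errors (SE), and a gene was called at a Benjamini-Hochberg adjusted p under 0.01. Because the 9 genes were selected on results of these data, their values are a description, and no p of a single member is given. Counts of members past a threshold describe the list and test nothing.

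**Figure D1:**
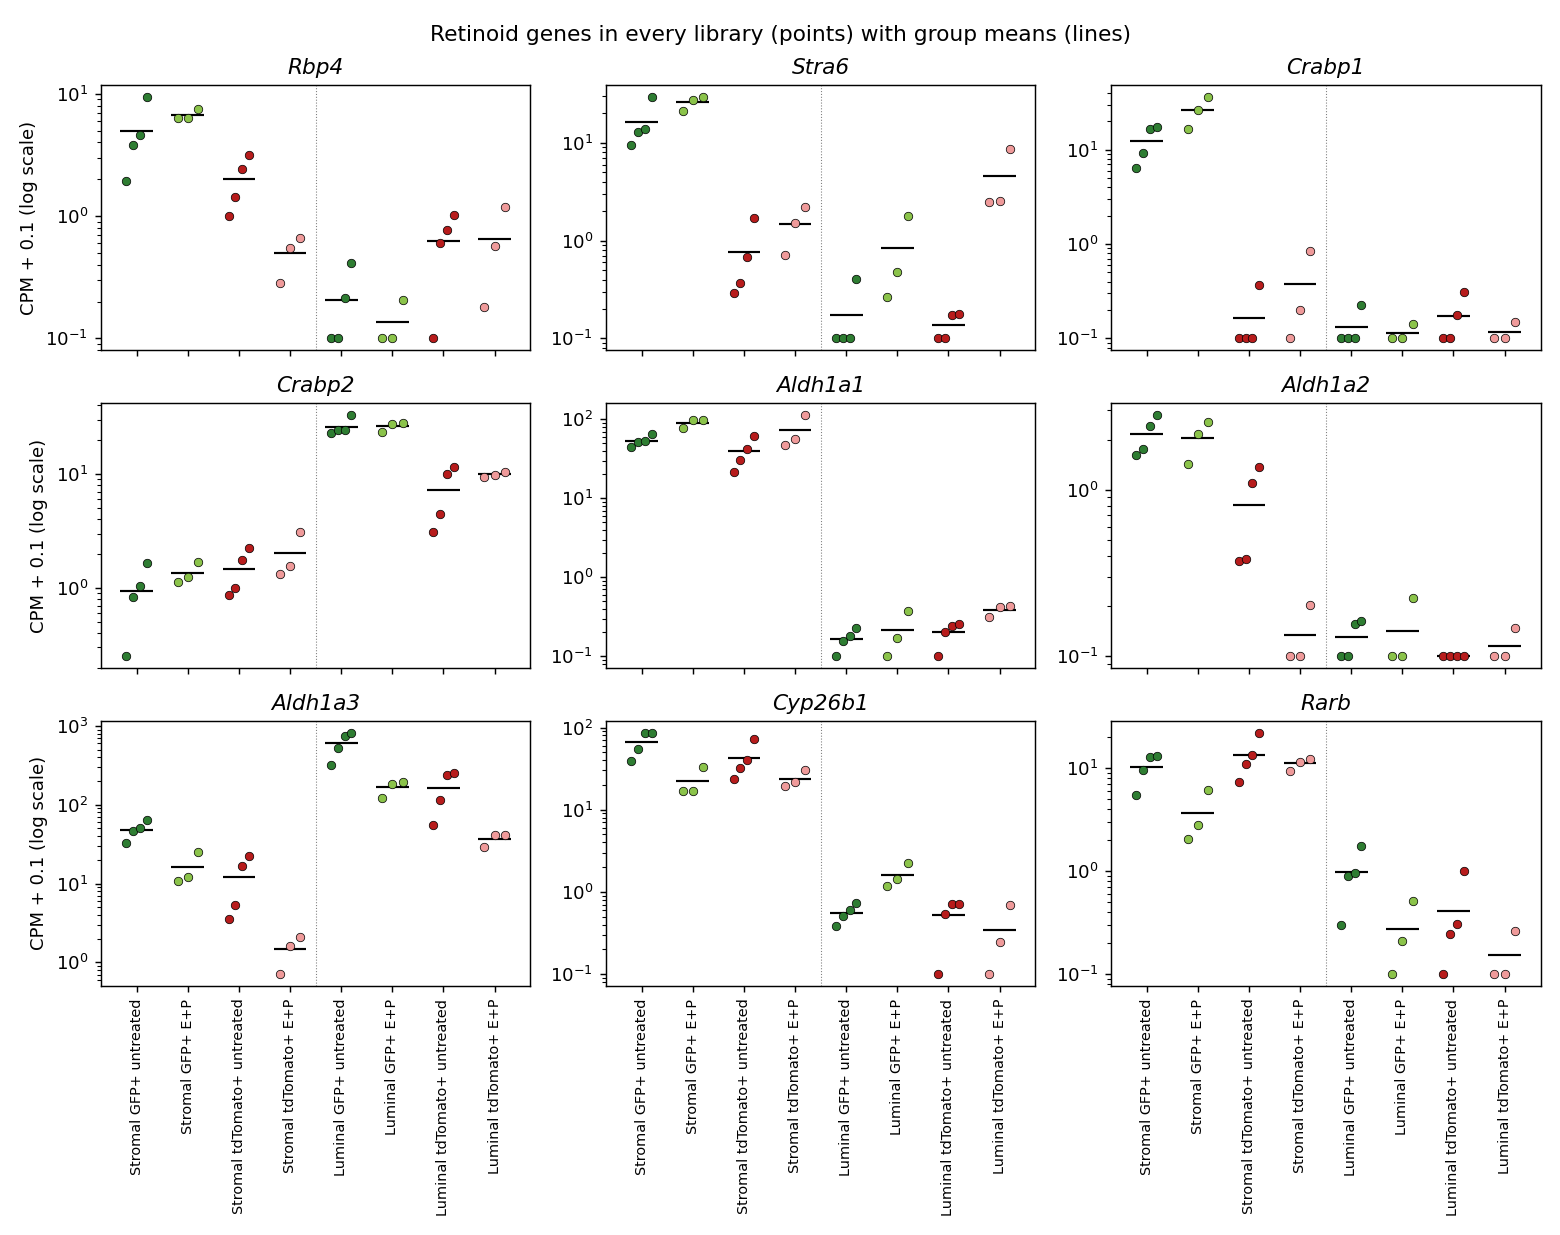
Level of each of the 9 retinoid genes in 28 libraries, as CPM + 0.1 on a log scale, by lineage, subset and treatment. Points are libraries and lines are group means, and each panel has its own vertical axis. Points at 0.1 are libraries with 0 counts, of which *Aldh1a3* and *Crabp2* have none. *Crabp1*, *Stra6* and *Aldh1a2* sit highest in GFP+ stroma, *Aldh1a3* and *Crabp2* in GFP+ luminal cells, and *Aldh1a1*, *Cyp26b1* and *Rarb* in both stromal subsets.

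The lineages differed in the levels of the members. Between luminal and stromal cells all 9 genes passed the threshold, which describes a list chosen on such results. Higher in luminal cells were 2 (*Aldh1a3* and *Crabp2*) and higher in stroma 7. Of all genes, 30.5% were called higher and 33% lower in luminal cells. Over all 14 libraries a side, *Aldh1a1*, *Cyp26b1* and *Rarb* were lower in every luminal library than in every stromal library, and the other 6 genes overlapped. How many of all genes lie apart in this way was not computed, so nothing particular to the 9 is read from it. Scaling by library size alone raised the median of all genes by 0.29 (log2) toward luminal cells and turned the direction of none of the 9.

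*Rbp4*, the carrier of retinol (chromosome 19, 38116629 to 38125281), was a low gene of GFP+ stroma. Its CPM were 3.71, 9.31, 4.51 and 1.84 in the untreated GFP+ stroma, and 6.25, 6.29 and 7.39 after E+P. The tdTomato+ stroma held 1.33, 0.904, 3.06 and 2.33 CPM untreated and 0.562, 0.445 and 0.184 after E+P. GFP+ stroma was thus above tdTomato+ stroma in 6 of 7 mice, with a log2 difference of 2.66 (SE 0.40). Within treatments this difference was 1.31 (SE 0.49) in untreated and 4.00 (SE 0.63) in E+P-treated mice, since every treated tdTomato+ library lay below every untreated one. The E+P values of tdTomato+ stroma rest on 11, 9 and 3 counts. *Rbp4* is also a gene of fat cells, and the summed adipocyte markers *Adipoq*, *Plin1*, *Cidec* and *Lep* reached at most 5.89 CPM in GFP+ stroma and 10.1 CPM in tdTomato+ stroma. After E+P they reached at most 0.475 and 0.971 CPM, and their part in these levels was not tested. Luminal cells stayed between 0 and 1.09 CPM.

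*Stra6*, the membrane receptor that takes up retinol from RBP4 (chromosome 9, 58063788 to 58153996), separated the stromal subsets fully. GFP+ stroma held 13.8, 9.38, 29.4 and 12.9 CPM untreated and 29.3, 27.6 and 21.0 CPM after E+P. In tdTomato+ stroma the values were 0.190, 0.271, 1.59 and 0.583 CPM untreated, and 0.613, 2.13 and 1.41 CPM after E+P. The log2 difference between the subsets was 4.36 (SE 0.41), with GFP+ higher in 7 of 7 mice and no overlap.

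In luminal cells *Stra6* appeared with hormone. Untreated tdTomato+ luminal libraries held 0, 0, 1 and 2 counts, and the E+P libraries 108, 56 and 52 counts, or 8.66, 2.39 and 2.47 CPM. As summed counts this is a ratio of 95.4, with an exact 95% interval from 32.2 to 466 for counting error only. GFP+ luminal cells had 0, 3, 0 and 0 counts untreated and 25, 7 and 4 counts after E+P, a ratio of 11.7 (interval 3.70 to 59.5). Most of the treated counts came from E+P replicate 1. The log2 fold change in GFP+ luminal cells was 3.5 (SE 1.21), not called, and was 2.05 without that mouse and 6.71 without untreated replicate 2. The treated tdTomato+ luminal libraries were all above the treated GFP+ luminal libraries, and their mean of 4.51 ± 3.59 CPM (SD, n = 3) was the third highest of the 8 groups, below both groups of GFP+ stroma. Fibroblast markers in tdTomato+ luminal cells summed to between 6.64 and 65.2 CPM untreated and between 27.0 and 57.4 CPM after E+P. Of these markers *Dcn* was higher after E+P (mean 35.6 beside 4.72 CPM) and *Col1a1* lower (0.697 beside 4.99 CPM), and their part in the *Stra6* level was not tested.

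The retinoic acid carriers had their highest levels in different lineages. *Crabp1* (chromosome 9, 54764748 to 54773110) had 6.29, 17.4, 9.03 and 16.3 CPM in untreated GFP+ stroma and 36.1, 26.1 and 16.5 CPM after E+P. Of the 7 tdTomato+ stromal libraries 4 had no count, and the others had 4, 2 and 12 counts, at most 0.735 CPM. All 14 luminal libraries lay at or below 0.207 CPM. The mean was 18.2 CPM in GFP+ against 0.158 CPM in tdTomato+ stroma, a fitted log2 difference of 6.82 (SE 0.61), which depends on the prior count for so low a group. It was 8.6 without untreated replicate 3, 8.03 without E+P replicate 3, and between 6.48 and 6.77 without any other mouse. The order of the 8 groups has a gap after both groups of GFP+ stroma, and the ranges of all neighbours below it overlap.

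*Crabp2* (chromosome 3, 87948666 to 87953376), which delivers retinoic acid to the receptors, was the luminal counterpart. GFP+ luminal cells held 24.2, 22.8, 24.1 and 33.0 CPM untreated and 23.5, 27.3 and 27.7 CPM after E+P. For tdTomato+ luminal cells they were 4.39, 2.98, 9.84 and 11.4 CPM untreated and 10.4, 9.28 and 9.75 CPM after E+P. GFP+ was higher in 7 of 7 mice without overlap, with a log2 difference of 1.61 (SE 0.24), and in each subset the ranges with and without E+P overlapped. Stroma held between 0.151 and 3.01 CPM, with overlapping ranges in all 4 groups. Per kilobase of exon, the untreated means were 15.3 CPM per kb for *Crabp1* in GFP+ stroma and 19.7 CPM per kb for *Crabp2* in GFP+ luminal cells.

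The 3 genes for retinaldehyde dehydrogenases each had their own distribution. *Aldh1a1* (chromosome 19, 20492715 to 20643465) was a stromal gene of both subsets. Untreated GFP+ stroma held 52.5, 64.9, 44.4 and 50.8 CPM, and E+P-treated GFP+ stroma 97.0, 78.1 and 97.8 CPM, which was higher in every library. For tdTomato+ stroma the values were 41.9, 62.1, 30.8 and 21.7 CPM untreated, and 55.8, 114 and 47.5 CPM after E+P, with overlap. The subsets differed by 0.37 (SE 0.23, log2), with GFP+ higher in 6 of 7 mice. Luminal libraries held between 0 and 7 counts each, at most 0.333 CPM, and the log2 difference between lineages was -8.86 (SE 0.27). Of the 75-base stretches of *Aldh1a1* exons, 1.01% are shared with *Aldh1a7*, so a small part of the reads could be assigned to either gene.

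*Aldh1a2* (chromosome 9, 71215789 to 71296243), the main source of retinoic acid in the embryo, was scarce. Its counts were 20, 35, 38 and 18 in untreated and 30, 25 and 42 in treated GFP+ stroma, all between 1.32 and 2.71 CPM. In tdTomato+ stroma they were 3, 3, 15 and 13 untreated and 2, 0 and 0 after E+P, a ratio of 20.3 between untreated and treated (exact 95% interval 5.21 to 175, counting error only). The fitted log2 change of -4.04 (SE 0.99) was -6.40 without E+P replicate 1, the only treated library with a count. Fibroblast markers in tdTomato+ stroma summed to 2599 to 5836 CPM untreated and 2165 to 2498 CPM after E+P, and endothelial markers to means of 57.2 and 165 CPM. Their part in the lower *Aldh1a2* and *Rbp4* of treated tdTomato+ stroma was not tested. GFP+ stroma lay above tdTomato+ stroma in 7 of 7 mice, without overlap. The gene also marks mesothelium, whose markers *Msln*, *Upk3b*, *Wt1* and *Lrrn4* summed to at most 1.36 CPM in GFP+ stroma and 0.869 CPM in tdTomato+ stroma, with *Msln* and *Lrrn4* near 0. Luminal libraries had at most 3 counts.

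*Aldh1a3* (chromosome 7, 66390890 to 66427517) had the highest group mean of the *Aldh1a* members in all 4 luminal groups and was the only member with 10 or more counts in all 28 libraries. Untreated GFP+ luminal cells held 823, 742, 322 and 520 CPM, and after E+P 185, 120 and 195 CPM. In tdTomato+ luminal cells the values were 237, 54.8, 115 and 249 CPM untreated and 41.7, 28.7 and 41.0 CPM after E+P. The treated GFP+ level (167 ± 40.4 CPM, SD, n = 3) was therefore beside the untreated tdTomato+ level (164 ± 94.6 CPM, n = 4), and the ranges of these groups overlap. Untreated GFP+ stroma held 50.5, 45.8, 63.7 and 33.0 CPM, and treated GFP+ stroma 12.2, 10.7 and 25.1 CPM. The values in tdTomato+ stroma were 22.1, 5.24, 16.8 and 3.40 CPM untreated and 1.99, 1.53 and 0.613 CPM after E+P.

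In each of the 4 cell populations every E+P library was therefore below every untreated library. Fitted E+P differences (log2) were -1.85 (SE 0.48) in GFP+ luminal cells, -2.12 (SE 0.49) in tdTomato+ luminal cells, -1.58 (SE 0.57) in GFP+ stroma and -3.07 (SE 0.67) in tdTomato+ stroma. The populations come from the same mice, so these are 4 readings of the same 4 and 3 animals. GFP+ cells were above tdTomato+ cells in 7 of 7 mice in both lineages, by 1.99 (SE 0.34) in luminal cells and 2.75 (SE 0.44) in stroma.

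Markers of other cells moved with *Aldh1a3*. The luminal progenitor markers *Kit*, *Elf5* and *Cd14* summed to between 1059 and 1535 CPM without and between 891 and 1009 CPM with E+P in GFP+ luminal cells, and to between 115 and 414 CPM and between 54.1 and 120 CPM in tdTomato+ luminal cells. Per 100 CPM of these markers, *Aldh1a3* was at 29.7 to 77.7 CPM in untreated and 13.5 to 21.8 CPM in treated GFP+ luminal cells, without overlap. In tdTomato+ luminal cells this ratio was 40.1 to 93.0 untreated and 24.9 to 75.7 after E+P, with overlap. Whether the share of progenitors set the level was not tested.

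Epithelial markers were also present in sorted stroma. *Krt8*, *Krt18*, *Krt19*, *Epcam* and *Cldn4* summed to between 18.2 and 80.6 CPM in untreated and between 3.89 and 4.91 CPM in treated GFP+ stroma. In tdTomato+ stroma the sums were 18.2 to 445 CPM untreated and 3.49 to 36.9 CPM after E+P. Per 100 CPM of these markers *Aldh1a3* was at 56.7 to 239 CPM in untreated GFP+ stroma, against 5.97 to 15.6 CPM in GFP+ luminal cells of the same mice, and these ranges lie apart. In untreated tdTomato+ stroma the ratio was 1.88 and 3.78 in replicates 2 and 3, inside the range of 0.807 to 3.94 in untreated tdTomato+ luminal cells, and 29.9 and 18.7 in replicates 1 and 4, above it. After E+P the ratio was 217 to 644 in GFP+ stroma, against 3.25 to 4.30 in GFP+ luminal cells. In treated tdTomato+ stroma it was 4.16 to 25.2, against 0.446 to 0.618 in treated tdTomato+ luminal cells. Both pairs of ranges lie apart. The part of luminal RNA in the stromal values of either subset was not tested further.

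**Figure D2:**
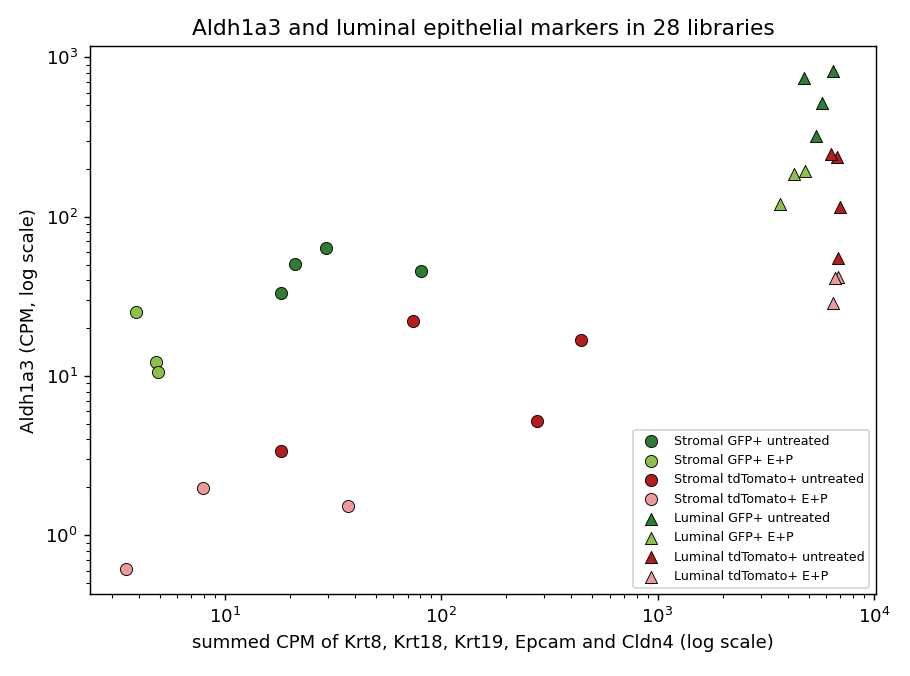
*Aldh1a3* (CPM) against the summed CPM of 5 luminal epithelial markers in the 28 libraries, both on log scales; circles are stromal and triangles luminal libraries, coloured by subset and treatment. The GFP+ stromal libraries lie at 10.7 to 63.7 CPM of *Aldh1a3* with at most 80.6 CPM of the markers, while untreated tdTomato+ stroma reaches 445 CPM of the markers.

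The balance of the 3 genes, compared per kilobase of exon, differed between the lineages. In luminal cells *Aldh1a3* made up between 99.2% and 99.98% of the summed level of these 3 genes. *Aldh1a7* is not part of this sum, and it rose with E+P in tdTomato+ luminal cells by 6.14 on the log2 scale. Its exons span 2066 bases beside 4617 for *Aldh1a3*, and its level per kilobase was not compared. Untreated GFP+ stroma had nearly even shares of *Aldh1a1* (48.7%) and *Aldh1a3* (47.2%) and 4.09% of *Aldh1a2*. After E+P the share of *Aldh1a1* there was 81.0%, with a sum of 22.7 CPM per kb beside 22.1 CPM per kb untreated. In tdTomato+ stroma *Aldh1a1* held 73.3% untreated and 97.9% after E+P. The sum was highest in untreated GFP+ luminal cells, at 130 CPM per kb, and 36.1 CPM per kb in the treated ones. These shares were computed from group means and were not tested.

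**Figure D3:**
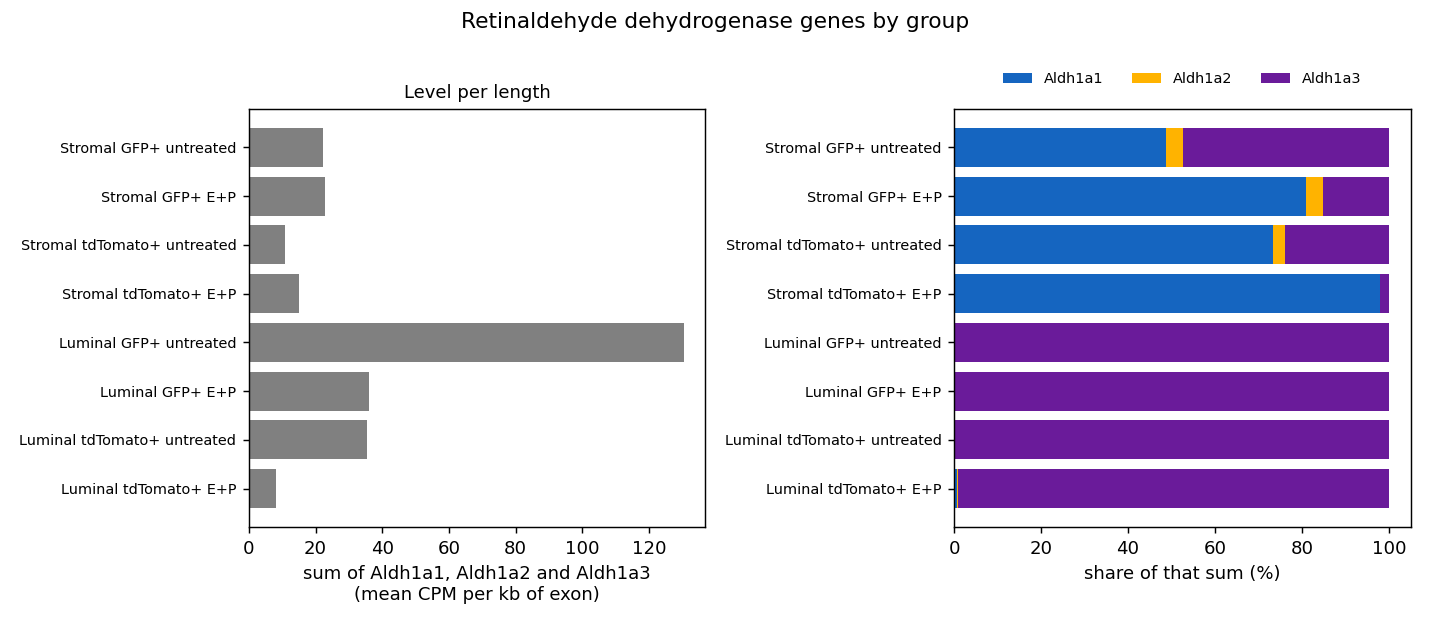
Summed level of *Aldh1a1*, *Aldh1a2* and *Aldh1a3* (mean CPM per kb of exon, left) and the share of each gene in that sum (percent, right) in the 8 groups. Luminal groups are nearly all *Aldh1a3*, and the share of *Aldh1a1* in stroma runs from 48.7% in untreated GFP+ to 97.9% in treated tdTomato+ cells.

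*Cyp26b1* (chromosome 6, 84571414 to 84593908), which encodes an enzyme that degrades retinoic acid, was found in both stromal subsets. Untreated GFP+ stroma held 86.6, 38.5, 55.1 and 86.5 CPM, and every treated library was lower, at 16.9, 17.0 and 33.4 CPM. The tdTomato+ stroma held 32.3, 40.1, 23.3 and 72.8 CPM untreated and 30.1, 19.2 and 21.5 CPM after E+P, with overlap. The subsets differed by 0.28 (SE 0.28, log2), with GFP+ higher in 4 of 7 mice, while E+P differed from untreated by -1.56 (SE 0.42) in GFP+ stroma. Luminal cells were low. Untreated GFP+ luminal cells were near the floor, at 0.507, 0.403, 0.286 and 0.629 CPM. Treated GFP+ luminal cells held 1.09, 1.35 and 2.12 CPM, from 16, 25 and 51 counts. In tdTomato+ luminal cells the level was at most 0.621 CPM. The other *Cyp26* genes, *Cyp26a1* and *Cyp26c1*, did not pass the low-count filter in any comparison.

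*Rarb* (chromosome 14, 16430839 to 16819156), encoding RARβ, was the only member with a lower level in GFP+ than in tdTomato+ stroma past the threshold. GFP+ stroma held 13.03, 9.38, 5.43 and 12.8 CPM untreated and 1.95, 2.69 and 6.06 CPM after E+P. The tdTomato+ stroma held 13.4, 10.9, 7.17 and 21.98 CPM untreated and 9.30, 12.3 and 11.5 CPM after E+P. GFP+ was lower in 7 of 7 mice, by 0.43 (SE 0.38, log2) in untreated and by 1.62 (SE 0.45) in treated mice, where the ranges do not overlap. The gene shares 1793 exon bases with *Top2b* on the opposite strand, and the strand setting of the counting was not given in the sources used here. *Top2b* lay at means between 187 and 218 CPM in the stromal and between 159 and 284 CPM in the luminal groups, and *Rarb* was at most 1.65 CPM in any luminal library.

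Between GFP+ and tdTomato+ stroma, then, 5 of 9 members were past the threshold and higher in GFP+ cells (*Crabp1*, *Stra6*, *Aldh1a2*, *Aldh1a3* and *Rbp4*) and 1 lower, where 20.6% of all 17783 genes tested were called higher and 21.3% lower. Fibroblast markers were apart in the same direction, at 25600 to 50638.5 CPM in GFP+ and 2165 to 5836 CPM in tdTomato+ stroma, and their part in these differences was not tested. The median log2 difference of the 9 was 2.66 beside -0.01 for all genes. In luminal cells 6 of the 9 passed the low-count filter, and 2 of them (*Aldh1a3* and *Crabp2*) were called higher and 0 lower in GFP+ cells, beside 15.7% and 19% of 16538 genes. With E+P none of the 9 was called in stroma by edgeR. Of all genes, E+P called 0.163% higher and 0.0675% lower in GFP+ stroma, and 0.0281% and 0.0956% in tdTomato+ stroma. An unadjusted p under 0.05 (edgeR) was reached by 4 of 9 in each subset, and by 1429 (GFP+) and 2780 (tdTomato+) of all 17783 genes. E+P in tdTomato+ luminal cells called *Stra6* higher and *Aldh1a3* lower, beside 7.63% and 6.44% of all genes. In GFP+ luminal cells E+P called 0 of 6, beside 3.17% and 2.78%. There 2 of the 6 and 4940 of all 16538 genes had an unadjusted p under 0.05 (edgeR). For the difference between the subsets in the E+P response, 0 of 9 were called in stroma (0.045% of all genes) and 0 of 6 in luminal cells (2.27%). In stroma 2 of the 9 and 1858 of all 17783 genes had an unadjusted p under 0.05 (edgeR). In luminal cells these were 0 of the 6 and 3633 of all 16538 genes. As a description, the difference in stroma was 3.96 (SE 1.19, log2) for *Aldh1a2* and 2.69 (SE 0.77) for *Rbp4*. The difference for *Aldh1a2* was 6.14 without E+P replicate 1, and that for *Rbp4* 3.45 without untreated replicate 2. Since the members were chosen on such results, these counts describe the list and do not set it apart from other genes.

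**Figure D4:**
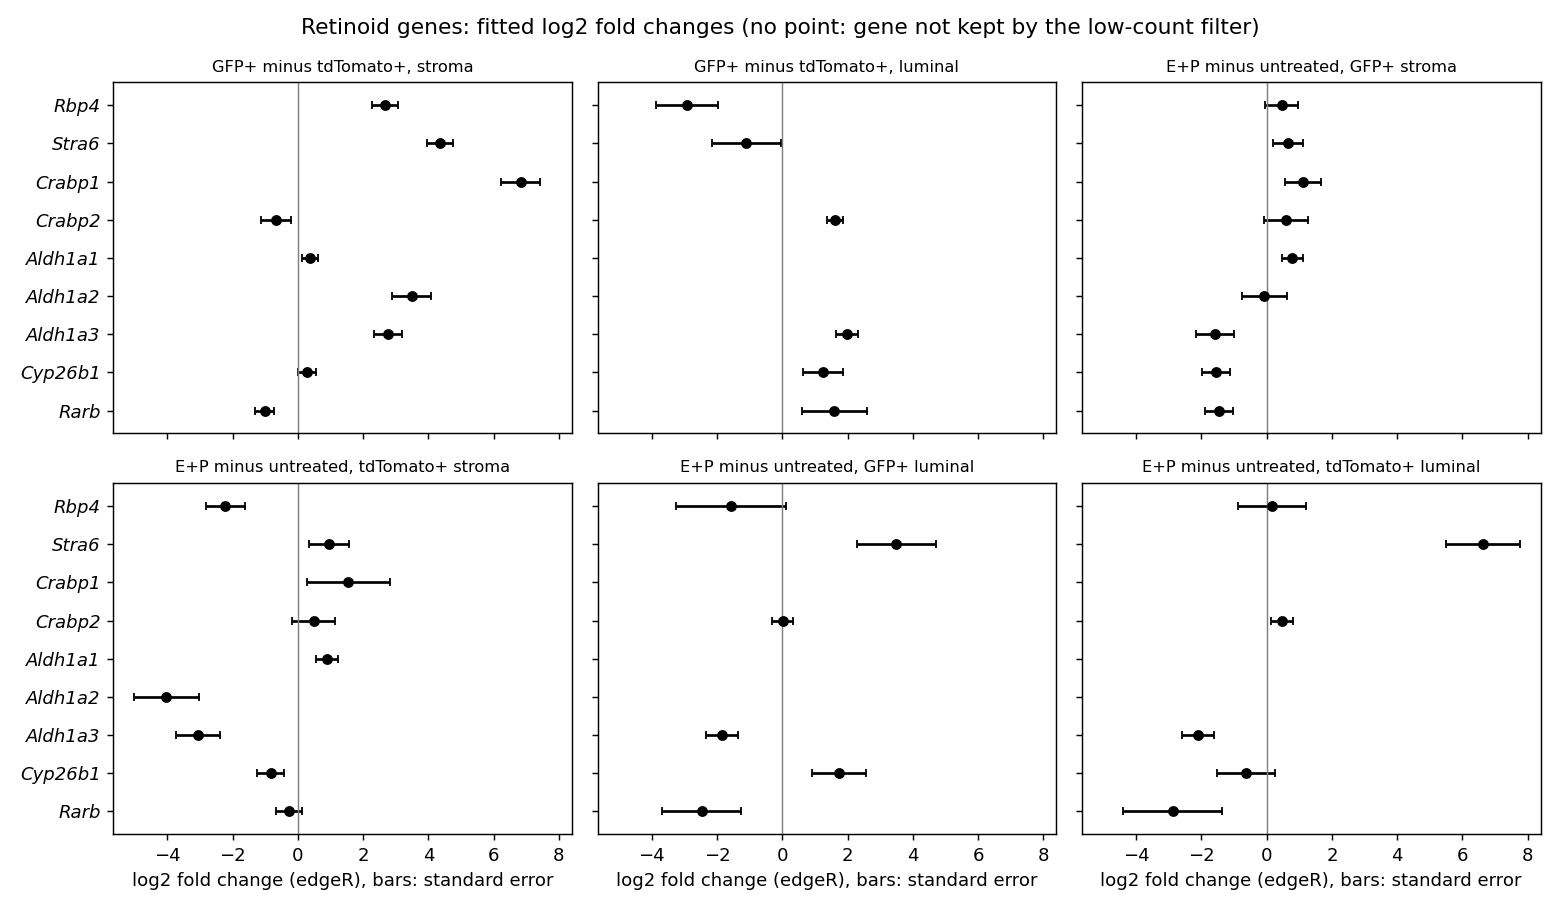
Fitted log2 fold changes (points) with standard errors (bars) of the 9 genes in 6 comparisons, from edgeR. *Crabp1* (6.82) and *Stra6* (4.36) lead in GFP+ against tdTomato+ stroma, and *Aldh1a3* lies below 0 in all 4 comparisons of E+P with untreated cells; a gene without a point did not pass the low-count filter.

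The other genes of the pathway were taken from a list of 50 covering uptake and storage, conversion of retinol, synthesis and breakdown, nuclear receptors and known induced genes. Between the stromal subsets 31 of the 50 were tested, of which 11 were higher in GFP+ cells, 6 were lower and 14 did not pass. Of all genes tested, 20.6% were called higher and 21.3% lower. By group, 5 of 12 tested conversion genes were higher and 1 lower, and 2 of 6 genes for uptake and storage were higher and 3 lower. *Dhrs9*, a short-chain dehydrogenase, differed by 4.89 (SE 0.61, log2, adjusted p = 2.62e-05, edgeR) as an average over both treatments. Its untreated means alone lay closer than this average, at 46.4 ± 22.8 CPM (GFP+, n = 4) and 5.56 ± 4.98 CPM (tdTomato+, n = 4). The alcohol dehydrogenases *Adh7* and *Adh1* differed by 3.08 (SE 0.32) and 2.21 (SE 0.21). *Rarres2*, encoding chemerin, differed by 2.25 (SE 0.12, adjusted p = 1.02e-10, edgeR). On the other side, *Dgat1*, which esterifies retinol as well as making triglycerides, was lower in GFP+ stroma, with a log2 difference of -2.49 (SE 0.18, adjusted p = 4.38e-09, edgeR), at 9.09 ± 2.79 against 56.6 ± 15.6 CPM untreated. *Scarb1*, *Fabp5* and *Rdh10* were lower by 1.86 (SE 0.22), 1.37 (SE 0.24) and 0.83 (SE 0.22), each at an adjusted p below the threshold. Skeletal and smooth muscle markers separated the same groups of libraries, and their part in the lower genes was not tested.

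In luminal cells 26 of the 50 were tested, with 4 higher in GFP+ cells, 10 lower and 12 not passing. The shares of all genes tested were 15.7% higher and 19% lower. *Fabp5*, a fatty acid binding protein that also carries retinoic acid, was higher by 2.78 (SE 0.36, log2, adjusted p = 5.97e-05, edgeR) as an average over both treatments. Its untreated means alone lay closer than this average, at 39.1 ± 22.9 CPM (GFP+) and 10.8 ± 7.59 CPM (tdTomato+). Lower in GFP+ luminal cells were *Aldh1a7* by 2.72 (SE 0.34), the homeobox gene *Meis1* by 2.44 (SE 0.21), *Tgm2* by 1.85 (SE 0.43), *Nrip1* by 0.97 (SE 0.14) and *Adh5* by 0.87 (SE 0.11). Without E+P replicate 2 or without E+P replicate 3, 8 genes passed in place of 14. Of the 10 known induced genes 3 were tested, and *Meis1*, *Tgm2* and *Nrip1* were called lower. *Tgm2* was not called without the low-count filter or without any 1 of E+P replicates 1, 2 and 3 or untreated replicates 1 and 2 (adjusted p up to 0.024, edgeR). *Rara* and *Rxra* were the receptors called lower, and *Rxra* was not called without any 1 of the 3 E+P mice or with library size scaling. Hormone-sensing markers (*Esr1*, *Pgr*, *Prlr*, *Foxa1*) summed without E+P to between 252 and 1677 CPM in the GFP+ subset and between 3304 and 5003 CPM in the tdTomato+ subset, and their part in these differences was not tested.

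With E+P 7 of the 26 genes rose in tdTomato+ luminal cells, 1 fell and 18 did not pass. Of all genes tested, 7.63% were called higher and 6.44% lower. Of the 10 tested genes for conversion of retinol, 3 rose (*Adh7*, *Adh5* and *Rdh13*). *Adh7* rose from 0.103 ± 0.0910 to 24.1 ± 8.64 CPM, 7.91 on the log2 scale (SE 1.14, adjusted p = 4.44e-04, edgeR), and *Aldh1a7*, a relative of *Aldh1a1*, from 0.363 ± 0.0969 to 25.5 ± 2.66 CPM (6.14, SE 0.42, adjusted p = 9.90e-07, edgeR). *Aldh1a1* stayed at or below 0.333 CPM in the same libraries. *Adh5* rose by 1.38 (SE 0.16) and *Nrip1* by 1.02 (SE 0.20), while *Rara* fell by 0.60 on the log2 scale (SE 0.14, adjusted p = 0.0073, edgeR). In the same libraries the basal markers *Krt5*, *Krt14*, *Krt17* and *Trp63* summed to between 4.70 and 8.96 CPM untreated and between 31.6 and 50.3 CPM after E+P, with *Trp63* at means of 1.15 and 22.2 CPM. The hormone-sensing markers were lower after E+P, at 1687 to 2757 CPM beside 3304 to 5003 CPM. The part of either in these changes was not tested.

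GFP+ luminal cells showed 2 of 26 higher and 1 lower after E+P, beside 3.17% and 2.78% of all genes. *Rara* fell from 55.0 ± 5.63 to 34.3 ± 8.14 CPM. *Aldh1a7*, named here after its values were seen because its level is under 10 CPM, rose from 0.168 ± 0.136 to 1.24 ± 0.759 CPM. For the difference between the subsets in this response, 0 of 26 passed in edgeR, beside 2.27% of all genes. An unadjusted p under 0.05 was reached by 12 of the 26 and by 3633 of all 16538 genes. The nearest were *Aldh1a7* (-3.42, SE 0.77) and *Rdh13* (-0.84, SE 0.19), both at an adjusted p of 0.017 (edgeR). *Rara* had an adjusted p of up to 0.055 in GFP+ and 0.039 in tdTomato+ luminal cells when 1 mouse was left out. The 3 calls in GFP+ luminal cells were 0 without E+P replicate 2 and 1 without E+P replicate 1 or untreated replicate 1, and the 8 calls in tdTomato+ luminal cells were 5 without E+P replicate 2 or untreated replicate 1. In stroma E+P changed 0 of 31 in GFP+ cells and 0 of 31 in tdTomato+ cells by edgeR, while DESeq2 called 0 and 3. Of all genes, edgeR called 0.163% higher and 0.0675% lower in GFP+ stroma, and 0.0281% and 0.0956% in tdTomato+ stroma. An unadjusted p under 0.05 (edgeR) was reached by 7 and 10 of the 31, and by 1429 and 2780 of all 17783 genes. The difference between the stromal subsets in this response passed for 0 of 31, beside 0.045% of all genes. There 7 of the 31 and 1858 of all 17783 genes had an unadjusted p under 0.05 (edgeR).

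**Figure D5:**
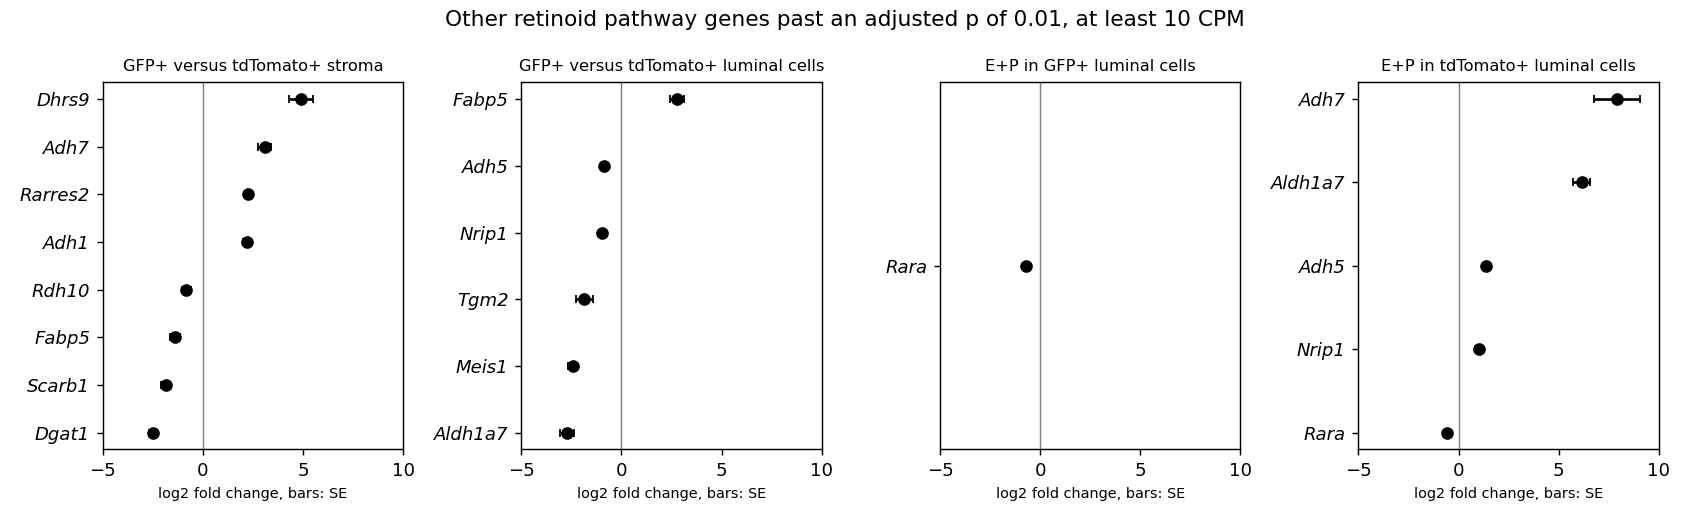
Log2 fold changes (points) with standard errors (bars) of the other retinoid pathway genes described here that passed an adjusted p of 0.01 and had at least 10 CPM in the higher group, in 4 comparisons. In stroma *Dhrs9* (4.89) and *Dgat1* (-2.49) mark the ends, and in tdTomato+ luminal cells *Adh7* (7.91) and *Aldh1a7* (6.14) lead.

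Between the lineages 24 of 36 tested genes of the list passed, 13 higher and 11 lower in luminal cells, beside 30.5% and 33% of all genes, and nothing particular to the pathway is read from these counts. *Rarres2* and the homeobox gene *Meis2* were nearly absent from luminal cells, with log2 differences of -9.80 (SE 0.30) and -9.47 (SE 0.33), and *Dhrs9*, *Adh1* and *Dgat1* were lower there by 5.51 (SE 0.56), 4.65 (SE 0.39) and 1.75 (SE 0.14). Higher in luminal cells were *Tgm2* by 1.92 (SE 0.28), *Scarb1* by 1.80 (SE 0.14), *Fabp5* by 1.30 (SE 0.22), *Adh5* by 0.93 (SE 0.12) and *Nrip1* by 0.87 (SE 0.11).

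The genes whose profile over the 28 libraries lay closest to each member were sought among 11385 genes by Pearson's r of log2 CPM, as a description, since the libraries share mice and fall into the 8 groups. For *Crabp1* they were *Gm30075* (r = 0.97), *Serpinb2* and *Tmem106a*. For *Stra6* they were *Stt3b* (0.93), *Il4ra* and *Mmp19*, and for *Crabp2* *Kcnn4* (0.95), *Slc5a9* and *Gm20219*. *Aldh1a1* lay closest to *Nr2f1* (0.99), which encodes an orphan nuclear receptor, then *B3galt1* and *Slc38a4*, and *Aldh1a3* to the chemokine gene *Cx3cl1* (0.94), *Sppl2a* and *Ppl*. *Cyp26b1* lay closest to *Ank2* (0.97), *Ildr2* and *Agmo*, and *Rarb* to *Mat2a* (0.96), *Fabp4* and *Gm38070*. *Rbp4* and *Aldh1a2* were under 10 CPM in every group and were not compared.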

How the data were processed

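RNA of FACS-sorted mouse mammary cells was sequenced in 28 libraries, made from 2 ng of total RNA of varying quality (RIN 1 to 10) with a stranded low-input kit and read in paired-end mode. The deposited values are raw read counts per gene. Per the labels and methods, the authors aligned reads with STAR 2.5.2a to GRCm38.p5 and counted against a GENCODE annotation; its release and the strand setting are not given in the sources used here. Symbols and GRCm38 coordinates were taken from GENCODE M21, which held 50376 of the 50600 IDs.

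Groups and mouse numbers were taken from sample titles. Counts were scaled by TMM, filtered with filterByExpr and tested with the two-sided quasi-likelihood F-test of edgeR 4.0.16 (R 4.3.3, robust), 1 mean per group, with all groups of a lineage in 1 fit (17783 stromal and 16538 luminal genes) and all 8 groups for the lineage comparison (19569 genes). Differences between subsets or lineages are averages over the treatments. P values were Benjamini-Hochberg adjusted over all genes tested, with a threshold of 0.01. The SE is the absolute log2 fold change divided by the square root of F. Log2 CPM used a prior count of 2. The fits were also run on simulated counts, drawn independently for each library. Such counts do not carry the pairing of libraries by mouse, so that run cannot speak to it. P values rest on the spread between the libraries of a group, each from a different mouse. The main fit has no term for the mouse, so the libraries of 1 mouse enter as independent.

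The members and gene lists were chosen with earlier results of these data known. Other pathway genes were named, up to 5 per comparison and direction, by the largest log2 fold change among those past the threshold with at least 10 CPM in the higher group. For members with at least 10 CPM, the 3 most similar genes were named. A gene that the rule names is not reported here, though the counts of genes include it.

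The 4 libraries of a mouse share its number in the titles and are paired. Deviations from group means correlated at 0.043 to 0.296 between the luminal subsets of a mouse, 0.0089 to 0.117 between its stromal subsets, and 0.020 to 0.0974 between its lineages. Untreated and E+P-treated mice of the same number are different animals. Alternatives were DESeq2 1.42.0 (size factors and Wald test), library size only, limma 3.58.1 (voom), a threshold of 0.05, fitting without the low-count filter, the replicate block and leaving out each mouse. No pair of libraries was identical (0 pairs).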

Additional observations from a re-analysis of the deposited data

Results flagged for a closer look

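Among the 35 untreated groups of 4 libraries in which one of the 9 genes had a count, 4 held a library past the limit of Dixon's test. For *Crabp2* in GFP+ luminal cells (33.0 CPM in the highest library) the other 3 libraries were close together, and chance alone gives such a library in about 1 in 20 groups. In the other 3 groups all libraries but 1 had no count, so that any count at all passes and the test says nothing. These were *Crabp1* in tdTomato+ stroma (0.266 CPM) and in GFP+ luminal cells (0.127 CPM), and *Stra6* in GFP+ luminal cells (0.302 CPM).

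The ranges of *Cyp26b1* with and without E+P lay apart in the GFP+ cells of both lineages, in opposite order, and the gene passed the threshold in neither. It was lower in every treated library of GFP+ stroma, with means of 66.7 CPM untreated and 22.4 CPM after E+P. It was higher in every treated library of GFP+ luminal cells, with means of 0.456 and 1.52 CPM, which rest on 4 to 8 and 16 to 51 counts per library. The difference between these responses was not tested.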

How the results depend on the processing

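None of the called values of the 9 genes changed sign under any alternative. Of their recomputed log2 fold changes 850 stayed within 1 SD and 35 moved further, and of their group levels under other scalings 141 stayed and 3 moved. For the named other genes 411 recomputed values kept their call and 31 lost it. Without the low-count filter, 1 other gene passed for E+P in GFP+ stroma, 4 in tdTomato+ stroma, and 3 and 1 for the differences between subsets in stroma and luminal cells. The DESeq2 Wald test called 3 for E+P in tdTomato+ stroma, 6 in GFP+ luminal cells and 3 for the luminal difference. At an adjusted p of 0.05 these counts were 2, 6 and 3. The mouse as a replicate block gave 16, 15 and 24 other genes for the stromal subsets, the luminal subsets and the lineages, and 1 (*Nrip1*) for the luminal difference between subsets. The replicate number as a block in the E+P comparisons, where it marks no shared animal (correlations of -0.145 to 0.0696), gave 0, 0, 3 and 7. Leaving out each mouse gave 15 to 17 other genes between stromal subsets, 8 to 13 between luminal subsets, 24 to 25 between lineages, 0 to 0 and 0 to 1 for E+P in GFP+ and tdTomato+ stroma, 0 to 3 and 5 to 8 in GFP+ and tdTomato+ luminal cells, and 0 to 0 and 0 to 1 for the stromal and luminal differences. Of these, 8 came without E+P replicate 2 or 3, 0 in GFP+ luminal cells without E+P replicate 2, 5 in tdTomato+ luminal cells without E+P replicate 2 or untreated replicate 1, 1 in tdTomato+ stroma without untreated replicate 2, and 1 for the luminal difference (*Fabp5*) without untreated replicate 4. The cause of these changes was not tested. By Spearman's rho, 2 of the 7 genes compared kept at least 2 of their 3 most similar genes. Genes under the floor of 3 counts cannot be told from absent at this depth.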
